A study of Mus musculus with 10 samples.

Results

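The genes described here are 40 enzymes and regulators that carry pyruvate and branched-chain amino acids to oxidation in muscle mitochondria. They fall into 3 steps, listed by name: 5 genes of the pyruvate dehydrogenase complex, 17 of the tricarboxylic acid (TCA) cycle and 18 of branched-chain amino acid breakdown. All 40 were represented, by 89 probe sets that each name 1 gene, out of 18193 genes and 34945 such probe sets on the array. Mut is carried in the gene table under its current name, Mmut.

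Affymetrix mouse genome arrays were used to read the RNA of gastrocnemius, a calf muscle, from male mice aged 12 to 16 weeks and fasted for 18 h. The 5 knockout mice were deficient in Skn-1, also called Pou2f3, a POU-domain transcription factor, and the other 5 were wild type. Both groups carry the label of a mixed 129 and C57BL/6J background, and the labels' protocols give more than 10 generations of backcrossing to C57BL/6J for the deficient line. How much of the gene was lost and whether wild types were littermates are not stated in the sources used here. The arrays are labelled as biological replicates numbered 1 to 5 in each genotype.

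The pyruvate dehydrogenase complex turns pyruvate into acetyl-CoA inside mitochondria, and the TCA cycle oxidises that acetyl-CoA and passes the electrons to the respiratory chain. Muscle is a main site where leucine, isoleucine and valine are first transaminated, and a complex built on the same plan as pyruvate dehydrogenase then decarboxylates their keto acids. In fasting, muscle holds pyruvate dehydrogenase back by phosphorylation and burns fatty acids, while amino acids released from protein feed the branched-chain route.

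The array medians lay between 6.23 and 6.24 and the highest value was 13.96, on a scale read as log2. The correlation between pairs of arrays, over probe sets that varied, ran from 0.950 to 0.993. Pou2f3 itself was read by a flat probe set, at 6.47 in either genotype (SD over 5 arrays 0.000289 and 0.000244), and so does not check the labels. Fast muscle genes marked the tissue, with the creatine kinase Ckm near the top of the scale, at 13.74 ± 0.0781 and 13.76 ± 0.0622 (SD, n = 5 knockouts and 5 wild types). Skin genes did not stand apart in the same way in every array that held them. Epidermis markers such as Krt10 and Krtdap (9 genes, 13 probe sets that varied) stood above their mean over the arrays by 1.03 in knockout 1, 1.39 in knockout 4 and 0.28 in wild type 3, and below it in the other 7. Hair root sheath markers (Krt71, Krt25, Krt27 and Tchh) stood above theirs by 2.99 in wild type 1 and 1.99 in wild type 3, and below it in the other 8 arrays, knockouts 1 and 4 included. Wild type 1 lay 0.13 below the mean in the epidermis markers. Lymphocyte markers (8 genes with 13 such probe sets) stood 1.19 above it in knockout 5 and 1.15 in wild type 3, and below it by at least 0.24 in the other arrays. Values without these 5 arrays rest on 2 knockouts and 3 wild types. Adipocyte markers (6 genes, 12 varying probe sets) were highest in wild type 3 (0.62), knockout 4 (0.50) and knockout 5 (0.48). They lay below their mean in knockout 1 (−0.17) and wild type 1 (−0.32), and lowest in wild type 4 (−0.64). Macrophage markers were highest in wild type 3 (0.60) and lowest in wild type 1 (−0.46). The part of each tissue in values without the 5 arrays was not tested. In muscle pieces, fewer cells of a type and less RNA per cell cannot be told apart.

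Of the 40 genes 24 had at least 1 probe set with a standard deviation (SD) above 0.01 over the 10 arrays, and 16 had none. Such an SD was found for 35 of the 89 member probe sets (39.3%), against 13.8% of all 45037 probe sets. These are called varying here, though Fh1, at 0.0120, was barely so. The other 54 hardly varied at all, with a deposited value nearly identical in all mice, and their differences have no size that can be read as a change in RNA. Members are brighter than the array as a whole, and among probe sets with a mean above 8 the shares were close, 58.2% of 55 member probe sets and 62.4% of all 5672.

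**Figure D1:**
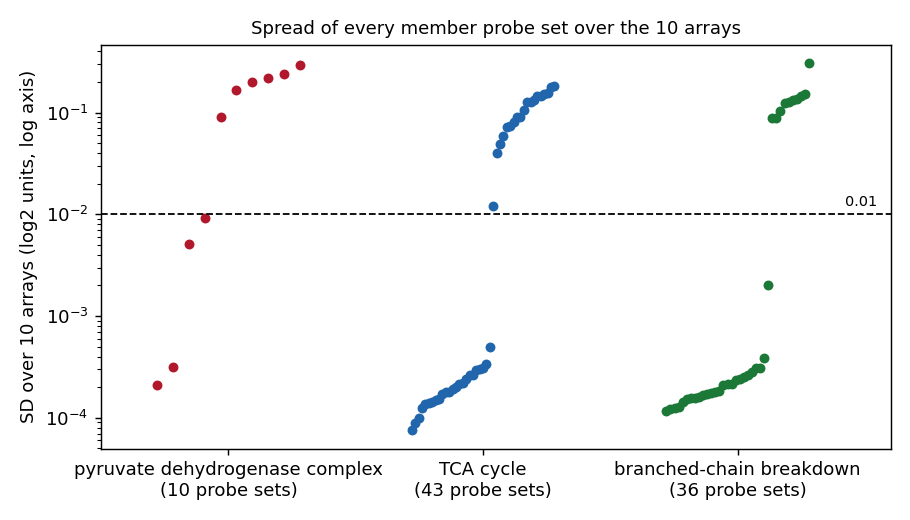
SD over the 10 arrays of each of the 89 member probe sets, on a log axis, in the 3 steps; points are sorted within a step and the dashed line marks 0.01. Most probe sets fall into an upper or a lower cloud, and near the line lie Fh1 at 0.0120 above it and Dld at 0.00926 below it.

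The steps differed in how much of them could be read. In the pyruvate dehydrogenase complex 6 of 10 probe sets varied, from 3 of the 5 genes. Dld, the dihydrolipoyl dehydrogenase that this complex shares with the 2-oxoglutarate and branched-chain complexes, and Pdhx, which anchors it in the complex, did not. In the TCA cycle 19 of 43 probe sets varied, from 13 of 17 genes, and the exceptions were Idh3b, Suclg1, Suclg2 and Sdhc. Of the branched-chain genes 10 of 36 probe sets varied, from 8 of 18 genes. The 10 that did not were the mitochondrial aminotransferase Bcat2, the decarboxylase subunit Bckdhb, the inactivating kinase Bckdk, and Ivd, Mccc1, Acad8, Hibch, Aldh6a1, Pcca and Pccb. The first transamination and the kinase that holds the branched-chain complex back were thus not readable for size in these data.

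The 2 kinds of probe set occurred within single genes, in 14 of the 40 members. Citrate synthase, Cs, which joins acetyl-CoA to oxaloacetate, had 1 probe set (1422578_at) at 11.35 in every array and another (1450667_a_at) that ran from 11.80 to 12.15. Mdh1, the cytosolic malate dehydrogenase, stood at 11.41 in every array by 1436834_x_at and between 11.15 and 11.58 by 1448172_at. Mmut, the methylmalonyl-CoA mutase of valine and isoleucine breakdown, stood at 9.24 in every array by 1448486_at and between 8.80 and 9.26 by 1416838_at. A flat deposited value in one probe set therefore went with a varying one in another of the same gene. Of the 54 flat member probe sets 42 had a mean above 6.23, the median of all probe sets, so they were not all dim.

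No member differed between knockout and wild type past the threshold. Of the 89 member probe sets 0 had a limma adjusted p under 0.05 (Benjamini-Hochberg over all 45037 probe sets, of which 0.191% passed). An unadjusted limma p under 0.05 was found for 5 of the 89, against 6.62% of all probe sets. Among the 35 that varied, 4 (11.4%) were at an unadjusted limma p under 0.05, against 9.92% of all 6209 that varied, so the share lay near that of the array. These 4 were all 3 varying probe sets of Dlat and 1 of Ppm1k, and the fifth was a flat probe set of Sdhd. Knockouts were higher in 26 of the 35 (74.3%), against 49.2% of all varying probe sets. Without the 5 arrays that carried skin or lymphocyte genes they were higher in 9 of the 35 (25.7%), against 48.7% of all varying probe sets, so the balance turned. The members moved together from array to array, as given further on, so these 26 are not separate observations.

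**Figure D2:**
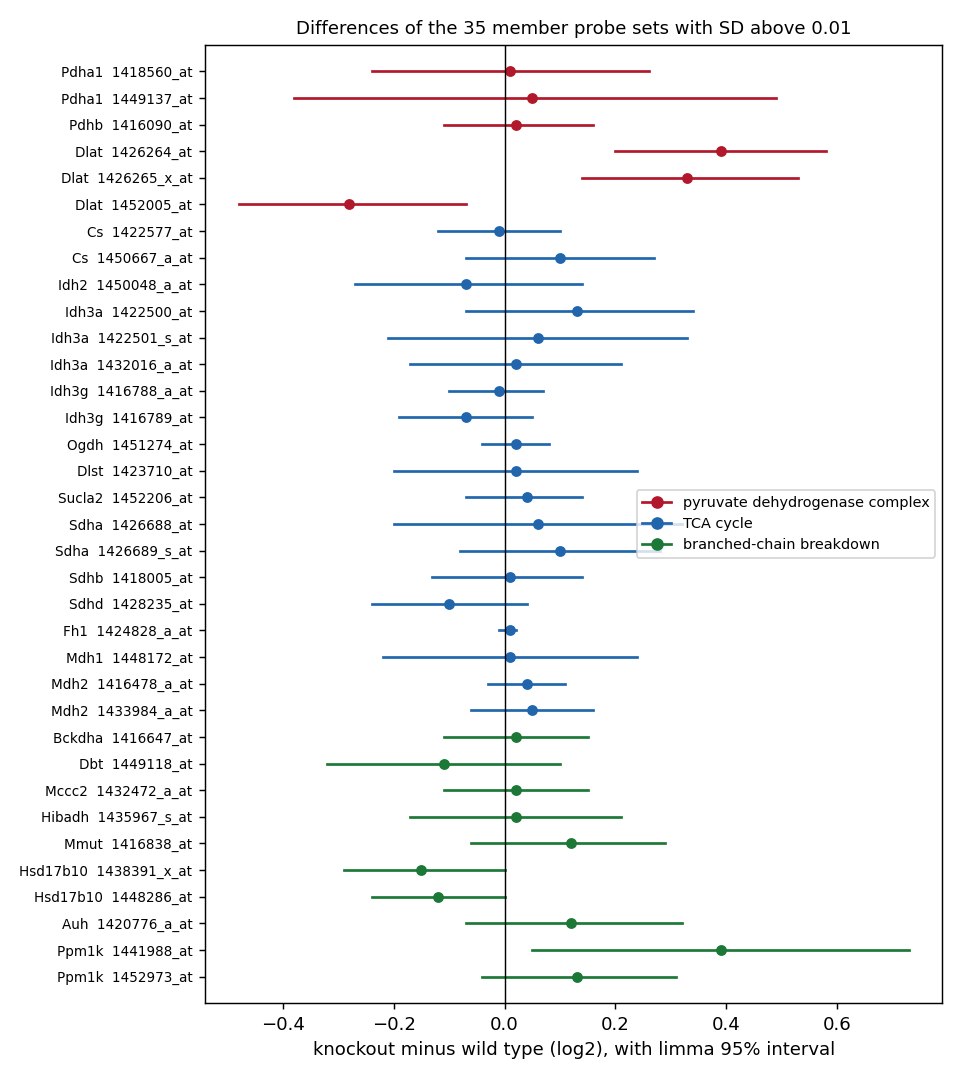
Knockout minus wild type difference (log2) of the 35 member probe sets with SD above 0.01, as a point with limma's 95% interval; colours mark the 3 steps. The intervals of the 3 Dlat probe sets and of 1 Ppm1k probe set leave out 0, with 1 of the Dlat probe sets on the lower side.

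In the pyruvate dehydrogenase complex an unadjusted limma p under 0.05 was found only for Dlat, and its probe sets pointed both ways. None of them passed the adjusted threshold. Dlat is the dihydrolipoamide acetyltransferase that forms the core of the complex and passes the acetyl group to coenzyme A. By 1426264_at the deposited values in knockouts 1 to 5 were 9.04, 9.26, 9.31, 9.41 and 9.24, and in wild types 1 to 5 they were 8.96, 8.93, 8.82, 8.95 and 8.65. Every knockout lay above every wild type there. It was the only 1 of the 35 varying member probe sets in which the genotypes did not overlap, against 3.96% of all that varied. The count of 1 among 35 is thus near the share of the array. By 1426265_x_at, whose suffix marks probes that can also match other transcripts, knockouts stood at 9.28, 9.50, 9.56, 9.65 and 9.50 and wild types at 9.21, 9.27, 9.07, 9.30 and 8.97. Here knockout 1 alone lay below a wild type, number 4. By 1452005_at the order turned: knockouts stood at 7.86, 8.03, 8.23, 8.25 and 8.15 and wild types at 8.42, 8.40, 8.37, 8.52 and 8.18. Wild type 5 alone overlapped the knockouts in that probe set.

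The means of the first Dlat probe set were 9.25 ± 0.137 in the 5 knockouts and 8.86 ± 0.131 in the 5 wild types (mean ± SD), a knockout level 1.31 times that of wild types (log2 difference 0.39 ± 0.08 SE, limma adjusted p = 0.195). The second stood at 9.50 ± 0.136 and 9.16 ± 0.140 (log2 difference 0.33 ± 0.09 SE, limma adjusted p = 0.333). For the third, 8.10 ± 0.162 in knockouts stood against 8.38 ± 0.127 in wild types (log2 difference −0.28 ± 0.09 SE, limma adjusted p = 0.540). The differences kept their signs in every alternative run, from 0.34 to 0.47, 0.28 to 0.39 and −0.33 to −0.20. Without the 5 arrays that carried skin or lymphocyte genes they were 0.45, 0.35 and −0.24. The first probe set passed where the varying probe sets were fitted and adjusted alone (limma adjusted p = 0.0425, with a range of 0.0425 to 0.837 over its 19 alternatives).

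**Figure D3:**
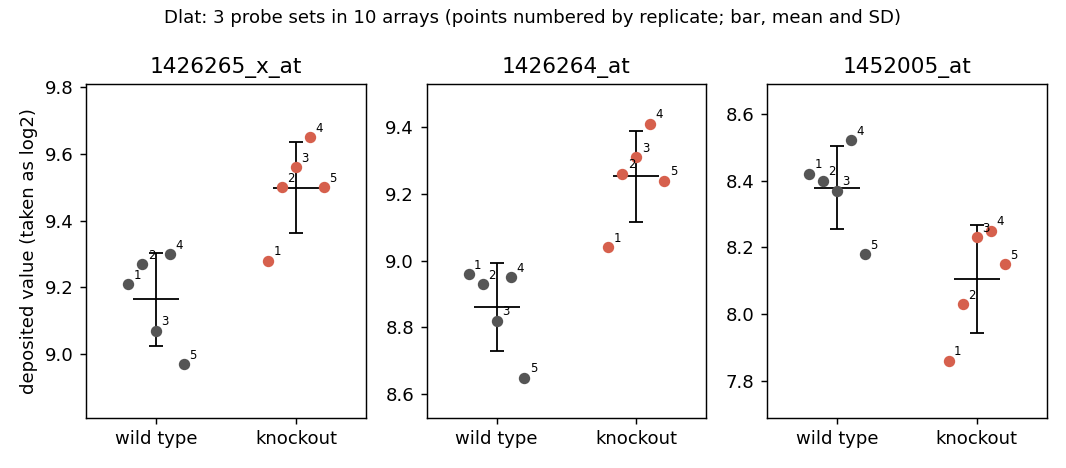
Deposited values (taken as log2) of the 3 Dlat probe sets in the 10 arrays; points are numbered by replicate, and the bar gives the mean and SD of 5 arrays. Knockouts are higher in 1426265_x_at and 1426264_at and lower in 1452005_at, each panel spanning 1 log2 unit.

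Within each genotype the ends of the order were shared by the 3 Dlat probe sets. Knockout 1 was the lowest knockout and knockout 4 the highest in all 3, and wild type 5 was the lowest wild type in all 3. The gap between 1426264_at and 1452005_at within an array was thus narrow inside a genotype: 1.18, 1.24, 1.08, 1.16 and 1.09 in knockouts, and 0.54, 0.53, 0.45, 0.43 and 0.47 in wild types. The mean gap was 1.15 ± 0.0643 in the 5 knockouts and 0.48 ± 0.0477 in the 5 wild types (mean ± SD), a difference of 0.67. An exact two-sided permutation test over arrays gave p = 0.00794, the smallest that 5 against 5 arrays allow (adjusted p = 0.0344 over the 13 pairs of probe sets compared). Between 1426265_x_at and 1452005_at the gap was 1.39 ± 0.0566 against 0.79 ± 0.0630 (SD, n = 5 each, exact permutation p = 0.00794, adjusted p = 0.0344). The 2 higher Dlat probe sets differed from each other by 0.24 ± 0.0114 in knockouts and 0.30 ± 0.0513 in wild types (SD, n = 5 each, exact permutation p = 0.0635). Without the 5 arrays that carried skin or lymphocyte genes the first 2 gap differences were 0.68 and 0.59. The probe sets of this 1 gene therefore changed unequally between the genotypes, and the arrays do not give a single direction for Dlat.

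The same comparison was made in all 9 members with more than 1 varying probe set, 13 pairs in all. The gap between probe sets did not overlap between genotypes in 3 pairs (23.1%), against 7.92% of 2385 such pairs over all genes. The pairs were 2 of Dlat, which share a probe set, and 1 of Idh3a. Idh3a encodes the catalytic subunit of the NAD-dependent isocitrate dehydrogenase. Its gap between 1432016_a_at and 1422500_at was 2.75 ± 0.0222 in the 5 knockouts and 2.86 ± 0.0924 in the 5 wild types (mean ± SD). This is a difference of −0.11 (exact permutation p = 0.00794, adjusted p = 0.0344), and the nearest arrays of the genotypes both rounded to 2.79. Without the same 5 arrays it was −0.08. For Cs the gap between 1450667_a_at and 1422577_at was 2.86 ± 0.0655 against 2.75 ± 0.0611 (SD, n = 5 each, exact permutation p = 0.0317, adjusted p = 0.0825). For Ppm1k it was 0.40 ± 0.183 against 0.65 ± 0.0852 (exact permutation p = 0.0238, adjusted p = 0.0774). The differences of these gaps without the 5 arrays were smaller, 0.05 against 0.11 for Cs and −0.12 against −0.25 for Ppm1k. The other 8 pairs had adjusted values of 0.138 or more.

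Dlat, Idh3a and Sdhd all lie on chromosome 9, the chromosome of Pou2f3. Counted in genes along the chromosome, Sdhd lies 187 places, Dlat 191 and Idh3a 267 places after Pou2f3, so that Sdhd and Dlat are 4 places apart. Acad8 lies 352 places before Pou2f3, and Bckdhb and Pccb lie 873 and 1149 places after it, but none of these 3 had a probe set that varied. Over all genes within 500 places of Pou2f3, 9 of 32 within-gene gaps (28.1%) did not overlap between genotypes, 3 of them those of Dlat and Idh3a, against 7.65% of 2353 gaps elsewhere. The part of the position in the Dlat values was not tested.

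The promoters of Dlat and Sdhd are shown because the genes are near neighbours on the chromosome of Pou2f3. That of Sdha is shown as the promoter of another succinate dehydrogenase subunit. Each is the 250 bases before the gene's start on the minus strand, from RefSeq on GRCm38.p6, with the matches to 5 motifs in capitals.
Dlat, chr9:50659781-50660030: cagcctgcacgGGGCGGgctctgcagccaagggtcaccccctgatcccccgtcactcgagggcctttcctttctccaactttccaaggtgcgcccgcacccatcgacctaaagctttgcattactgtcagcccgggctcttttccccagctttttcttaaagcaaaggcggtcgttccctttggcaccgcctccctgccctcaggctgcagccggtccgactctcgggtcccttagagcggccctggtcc
Sdhd, chr9:50603850-50604099: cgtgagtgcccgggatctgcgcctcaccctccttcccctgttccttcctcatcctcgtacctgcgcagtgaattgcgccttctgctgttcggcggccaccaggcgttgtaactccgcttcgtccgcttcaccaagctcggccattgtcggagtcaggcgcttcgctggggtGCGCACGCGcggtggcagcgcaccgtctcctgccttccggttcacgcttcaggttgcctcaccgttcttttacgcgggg
Sdha, chr13:74350241-74350490: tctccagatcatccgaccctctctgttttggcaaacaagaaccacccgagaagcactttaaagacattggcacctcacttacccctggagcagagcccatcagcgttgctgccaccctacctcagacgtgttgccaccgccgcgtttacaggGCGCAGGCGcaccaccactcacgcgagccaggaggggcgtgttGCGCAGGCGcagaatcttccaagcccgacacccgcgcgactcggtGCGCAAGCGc

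The motifs were those of factors known from promoters of mitochondrial genes, searched as letters on both strands of the same window. The Sp1 motif GGGCGG stood in 22 of the 36 members with a promoter entry (61.1%), Dlat among them, and in 35.4% of 27025 genes. The NRF-1 motif GCGCANGCG stood in Hibadh, Ogdh, Pccb, Sdha, Sdhd and Sucla2 (16.7% of the 36) and in 5.86% of all genes. The YY1 motif AAGATGGCG stood in Idh3g alone of the 36, and in 0.71% of genes. The ERR motif TCAAGGTCA and the GABP motif CCGGAAGT stood in none of the 36, against 0.422% and 3.23% of genes. No entry was matched for Dbt, Idh3a, Mmut and Sdhc.

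The other readable subunits of pyruvate dehydrogenase stood at about the same level in both genotypes. Pdha1, the decarboxylase subunit that is switched off by phosphorylation, read by 1418560_at, stood at 11.24, 11.33, 11.65, 11.55 and 11.58 in knockouts and at 11.29, 11.70, 11.34, 11.59 and 11.37 in wild types. The genotypes overlapped fully (log2 difference 0.01, 95% interval −0.24 to 0.26). Pdhb, the other subunit of that decarboxylase, stood at 10.58, 10.60, 10.84, 10.83 and 10.77 in knockouts and at 10.67, 10.71, 10.65, 10.78 and 10.68 in wild types. Its difference was 0.02, with an interval of −0.11 to 0.16. Without the 5 arrays that carried skin or lymphocyte genes the differences were −0.06 for Pdha1 and −0.01 for Pdhb. Knockouts 1 and 2 were the lowest knockouts in both genes. The interval was wider for the dimmer Pdha1 probe set, 1449137_at, at −0.38 to 0.49, so a change of up to 1.40 times is not excluded for it.

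In the TCA cycle all 19 varying probe sets differed by little. Differences ran from −0.10 to 0.13, 14 of them higher and 5 lower in knockouts, with a median of 0.02 against −0.00211 over all varying probe sets. With the 5 arrays that carried skin or lymphocyte genes left out, 5 of the 19 were higher in knockouts and the median was −0.02. The smallest limma adjusted p was 0.892 among these 19, and 0 of them had an unadjusted p under 0.05. The 95% intervals over all arrays stayed within −0.27 and 0.34, or 1.21 times lower and 1.26 times higher in knockouts. Each interval covers 1 probe set, so these are not joint bounds for the 13 genes with a varying probe set. Without the 5 arrays the difference of Idh2 alone was −0.27.

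Sdhd, a membrane anchor of succinate dehydrogenase, had the smallest p of this step. Its varying probe set 1428235_at stood at 10.00, 9.96, 10.21, 10.16 and 10.19 in knockouts and at 10.18, 10.11, 10.26, 10.30 and 10.18 in wild types. Knockouts 1 and 2 lay below all wild types, and the other 3 lay among them (log2 difference −0.10 ± 0.06 SE, limma adjusted p = 0.892). Leaving out the 5 arrays with skin or lymphocyte genes gave −0.11. Sdha, the flavoprotein that oxidises succinate, had the opposite sign over all arrays by 1426689_s_at: knockouts stood at 11.26, 11.28, 11.42, 11.54 and 11.53 and wild types at 11.17, 11.40, 11.24, 11.47 and 11.26 (log2 difference 0.10 ± 0.08 SE). For Sdha the sign turned without the same 5 arrays, to −0.03. Sdhb, the iron-sulfur subunit, stood at 12.08 in both genotypes, and differed by −0.09 without the same 5 arrays.

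Of the genes that lead from citrate to succinyl-CoA, Idh3a had the largest difference. By 1422500_at knockouts stood at 8.45, 8.53, 8.81, 8.79 and 8.80 and wild types at 8.57, 8.52, 8.40, 8.70 and 8.54. Knockouts 3, 4 and 5 lay above all wild types, and knockouts 1 and 2 lay among them (log2 difference 0.13 ± 0.09 SE, limma adjusted p = 0.923). The brightest Idh3a probe set, 1432016_a_at, stood at 11.19, 11.27, 11.55, 11.58 and 11.53 in knockouts and at 11.38, 11.34, 11.42, 11.49 and 11.39 in wild types. There knockouts 1 and 2 lay below all wild types and the other 3 above them, with a difference of 0.02. The Idh3a differences were 0.08 and 0.00 without the 5 arrays. Idh3g, a regulatory subunit of the same enzyme, read by 1416789_at, stood at 11.06, 11.05, 11.28, 11.16 and 11.23 in knockouts and at 11.14, 11.25, 11.18, 11.31 and 11.25 in wild types (log2 difference −0.07 ± 0.05 SE, or −0.11 without the 5 arrays). Idh2, the NADP-dependent mitochondrial isocitrate dehydrogenase, differed by −0.07 too, but by −0.27 without the 5 arrays.

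At the entry to the cycle, Cs by 1450667_a_at stood at 11.82, 11.91, 12.05, 12.15 and 12.10 in knockouts and at 11.84, 11.96, 11.80, 12.05 and 11.86 in wild types. The genotypes overlapped, with a difference of 0.10 (95% interval −0.07 to 0.27), which was 0.02 without the 5 arrays. Ogdh, the 2-oxoglutarate decarboxylase, stood at 9.93, 9.89, 9.90, 9.99 and 9.93 in knockouts and at 9.88, 9.94, 9.85, 9.96 and 9.92 in wild types. Its difference was 0.02, with an interval of −0.04 to 0.08, and without the 5 arrays with skin or lymphocyte genes it was −0.04. Dlst, which carries the succinyl group in that complex, differed by 0.02 (95% interval −0.20 to 0.24), Sucla2, a subunit of succinyl-CoA synthetase, by 0.04, Mdh1 by 0.01 and the mitochondrial malate dehydrogenase Mdh2 by 0.05 in its brightest probe set. In the same order they differed by −0.02, −0.02, −0.10 and −0.02 without the 5 arrays. Fumarase, Fh1, ran only from 10.93 to 10.97 over the 10 arrays. Its SD of 0.0120 lay close to the 0.00926 of Dld, which was counted as flat, so its difference has little readable size.

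Branched-chain breakdown held the widest difference outside Dlat, in Ppm1k. Ppm1k encodes the mitochondrial phosphatase that switches the branched-chain keto acid dehydrogenase on. By 1441988_at knockouts stood at 7.81, 6.94, 7.04, 7.36 and 7.30 and wild types at 6.91, 6.92, 6.94, 6.78 and 6.95. Knockouts 1, 3, 4 and 5 lay above all wild types, number 3 by the least, and knockout 2 lay among them. The mean was 7.29 ± 0.337 in the 5 knockouts and 6.90 ± 0.0669 in the 5 wild types (mean ± SD) (log2 difference 0.39 ± 0.15 SE, limma adjusted p = 0.678). A second Ppm1k probe set, 1452973_at, stood at 7.95, 7.56, 7.54, 7.64 and 7.73 in knockouts and at 7.48, 7.62, 7.57, 7.56 and 7.53 in wild types. Knockout 1 was again the highest array (log2 difference 0.13 ± 0.08 SE, limma adjusted p = 0.877).

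The 3 knockouts with the highest 1441988_at values were those that carried epidermis markers (1 and 4) or lymphocyte markers (5). Without the 5 arrays that carried such genes the Ppm1k differences were 0.11 and −0.02 (limma adjusted p = 0.906 and 0.972, none under 0.331 in any alternative). Wild type 3, with epidermis, hair and lymphocyte markers, stood at 6.94, and wild type 1, with hair markers, at 6.91. The part of these tissues in the Ppm1k values was not tested. Without knockout 1 the difference of 1441988_at was 0.26.

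**Figure D4:**
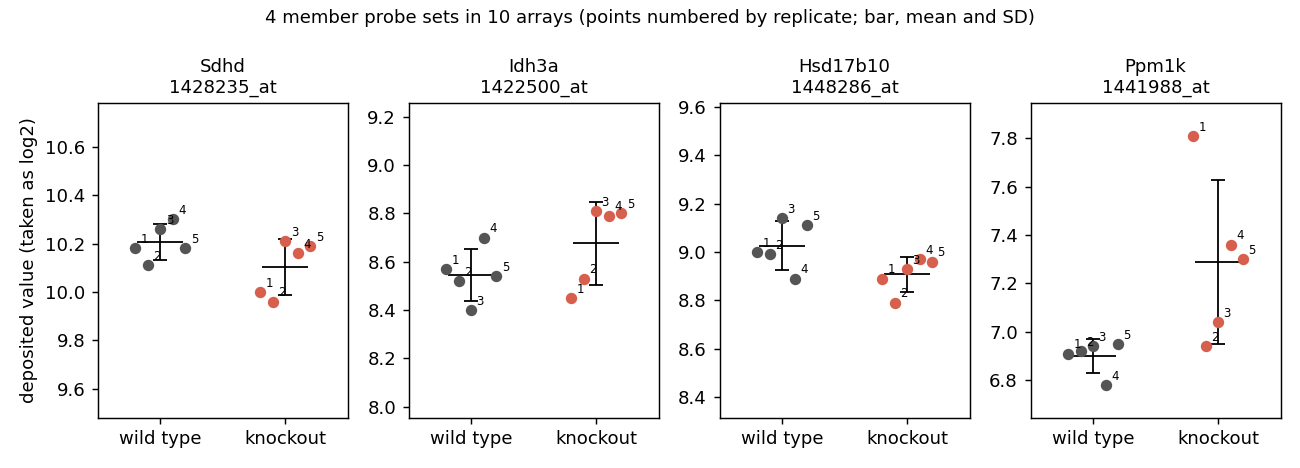
Deposited values (taken as log2) of 1 probe set each of Sdhd, Idh3a, Hsd17b10 and Ppm1k in the 10 arrays; points are numbered by replicate, and the bar gives the mean and SD of 5 arrays. Each panel spans the same height, and the genotypes overlap in all 4, with knockout 1 of Ppm1k at 7.81.

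Hsd17b10, the dehydrogenase of isoleucine breakdown that is also a subunit of mitochondrial RNase P, had the same sign in both of its probe sets. By 1448286_at knockouts stood at 8.89, 8.79, 8.93, 8.97 and 8.96 and wild types at 9.00, 8.99, 9.14, 8.89 and 9.11. The genotypes overlapped through wild type 4 (log2 difference −0.12 ± 0.05 SE, limma adjusted p = 0.774). By 1438391_x_at knockouts stood at 8.41, 8.22, 8.32, 8.27 and 8.28 and wild types at 8.44, 8.50, 8.49, 8.24 and 8.58 (log2 difference −0.15 ± 0.06 SE, limma adjusted p = 0.755). Wild type 4 was the lowest wild type there too. Leaving out the 5 arrays with skin or lymphocyte genes gave −0.13 and −0.17.

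The branched-chain dehydrogenase itself was readable in 2 subunits. Bckdha, of its decarboxylase, stood at 9.18, 9.08, 9.18, 9.28 and 9.30 in knockouts and at 9.03, 9.23, 9.19, 9.29 and 9.21 in wild types. The genotypes overlapped fully (log2 difference 0.02, 95% interval −0.11 to 0.15). The sign turned without the same 5 arrays, to −0.11. Dbt, the acyltransferase core and the counterpart of Dlat, differed by −0.11 (95% interval −0.32 to 0.10), or by −0.22 without the 5 arrays. Of the later steps, Mccc2, a subunit of the leucine-specific carboxylase, differed by 0.02, Auh, the hydratase after it, by 0.12, Hibadh, of valine breakdown, by 0.02 and Mmut by 0.12. In the same order these genes differed by −0.01, 0.03, −0.14 and −0.01 without the 5 arrays. Over the 10 varying probe sets of this step 7 were higher and 3 lower in knockouts, with a median of 0.02, while without the 5 arrays 2 were higher and the median was −0.06. Apart from Ppm1k, the intervals stayed within −0.32 and 0.32.

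The members of the first 2 steps went up and down together from array to array, in both genotypes. With 1 array per mouse, a difference between mice and one between arrays cannot be told apart. Of the 19 varying TCA probe sets, 2 stood above their own mean over the 10 arrays in knockout 1 and 1 in knockout 2, against 17, 18 and 17 in knockouts 3, 4 and 5. Among wild types these counts were 2, 13, 4, 19 and 7. The median deviation of the TCA probe sets ran from −0.12 in knockout 1 to 0.11 in knockout 5. Among wild types the lowest was −0.06, in number 3, and the highest 0.09, in number 4, so the spread inside a genotype was wider than the median difference of 0.02 between genotypes. Pyruvate dehydrogenase gave the same lowest pair of knockouts, with median deviations of −0.17, −0.12, 0.21, 0.10 and 0.14 in knockouts 1 to 5. In wild types 1 to 5 they were −0.11, 0.05, −0.09, 0.10 and −0.11. This step rests on 6 probe sets from 3 genes, so single genes count more than once. Whether the pattern is particular to these members or shared by all varying probe sets was not tested. Idh2 went another way: it was highest in knockout 1 (10.15) and lowest in knockout 3 (9.60).

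**Figure D5:**
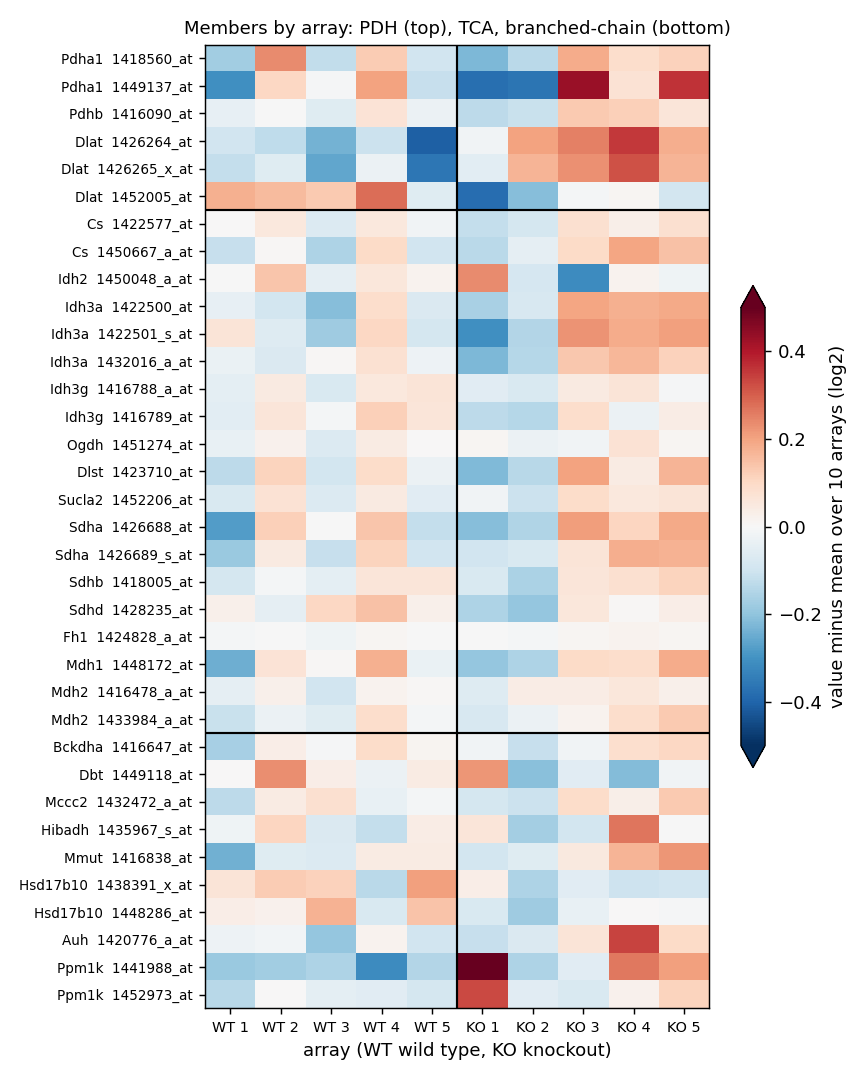
Value minus the mean over the 10 arrays (log2 colour scale, ends open) of the 35 varying member probe sets, with wild types on the left and knockouts on the right; lines part the 3 steps. TCA rows are mostly below their mean in knockouts 1 and 2 and above it in knockouts 3, 4 and 5 and in wild type 4, while of the 10 branched-chain rows all lie below in knockout 2, 8 lie below in wild type 1 and 8 lie above in knockout 4.

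The branched-chain probe sets followed this pattern less closely by eye, which was not tested. Of the 10, 5, 0, 3, 8 and 7 stood above their own mean in knockouts 1 to 5, and 2, 7, 4, 3 and 6 in wild types 1 to 5. Fast muscle markers (6 genes, 9 varying probe sets) deviated by −0.02, 0.00, 0.13, 0.09 and 0.01 in knockouts 1 to 5 and by −0.07, −0.04, −0.11, 0.05 and −0.04 in wild types. Slow muscle markers (8 genes, 10 such probe sets) deviated by 0.07, −0.06, −0.26, 0.06 and −0.09 in knockouts and by −0.01, 0.30, 0.10, −0.05 and −0.06 in wild types. The part of fibre make-up in the array pattern was not tested. With the slow markers as a covariate the median differences of the 3 steps were 0.01, 0.01 and 0.06.

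Other genes of the same routes, taken from lists of pathway genes, did not pass either. For pyruvate handling 0 of 28 probe sets from 14 genes passed (limma, 2 at an unadjusted p under 0.05), and 9 of the 16 that varied were higher in knockouts. Among those that varied, the 3 with the smallest p were all of Pdpr, the regulatory subunit of pyruvate dehydrogenase phosphatase, at 0.19, 0.16 and 0.16 (limma adjusted p = 0.661, 0.895 and 0.913), and without the 5 arrays they differed by 0.06, 0.04 and −0.00. Pdk4, the kinase that inactivates pyruvate dehydrogenase in fasting, was picked out with its values in view and stood at 12.99 in knockouts and 12.91 in wild types (limma adjusted p = 0.965), with a difference of −0.07 without the 5 arrays.

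Around the TCA cycle 0 of 26 probe sets from 14 genes passed (limma, 1 at an unadjusted p under 0.05), and 4 of the 9 that varied were higher. Of those that varied, the aspartate aminotransferase Got1 differed by −0.11 and the succinate dehydrogenase assembly factors Sdhaf3 and Sdhaf4 by −0.05 and 0.03, or by −0.27, 0.07 and 0.09 without the 5 arrays. Around branched-chain breakdown 0 of 29 from 15 genes passed (limma, 0 at an unadjusted p under 0.05), and 5 of the 10 that varied were higher. The enoyl-CoA hydratase Echs1 differed by −0.12, Acat1, the thiolase that ends isoleucine breakdown, by 0.16, and the alanine aminotransferase Gpt2 by 0.16 in 1438385_s_at. The other 3 varying probe sets of Gpt2 differed by 0.05, −0.00 and 0.07. The values of Echs1, Acat1 and Gpt2 1438385_s_at were −0.20, 0.13 and 0.22 without the 5 arrays. Acat1, too, lies on chromosome 9, 245 places after Pou2f3.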

How the data were processed

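The deposited values, 1 per probe set and array, were read as log2 because they run from 4.93 to 13.96. The sources used here do not state the authors' software, normalization or log base. The values were taken as normalized between arrays, which is an assumption. The array medians are close, but 38828 of the 45037 probe sets hardly varied. Close medians therefore cannot show whether the varying probe sets were normalized. Per the labels' protocols, RNA was taken up in Trizol, cleaned on a column, and 100 ng was labelled for the arrays. Of 45101 rows, 64 array controls were left out, and none of the remaining values was rescaled. Gene names came from the platform annotation, updated by gene ID with a RefSeq table of GRCm38.p6 (34741 of 34945 probe sets with 1 gene matched), which was used for names, gene order and promoters only. With 5 arrays a genotype, precision is limited by their number.

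Genotypes were compared on all 45037 probe sets with limma 3.58.1 in R 4.3.3 (lmFit, eBayes without trend, Benjamini-Hochberg at 0.05), and members were read from that fit. The fit was tested on simulated data, where it recovered 36.7% of added log2 changes of 0.5 and 76.5% of those of 1. A missing call alone therefore does not exclude a change of such a size. For varying members limma's intervals, each for 1 probe set, set closer limits. They stayed within −0.27 and 0.34 in the TCA cycle and −0.38 and 0.49 for Pdha1 and Pdhb. For branched-chain genes other than Ppm1k they stayed within −0.32 and 0.32. The highest bounds were 0.58 for Dlat and 0.73 for Ppm1k. Flat probe sets have no readable size. Gaps between probe sets were compared by exact two-sided permutation over all 252 splits. No detection calls were used here, so no value was tested against background.

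The members, lists and tests were chosen with earlier results of these data known. Array values are given for member probe sets with SD above 0.01 that passed, that had the 4 smallest p of their step, or that were the brightest of Pdha1, Dlat, Cs, Idh3a, Ogdh, Sdha, Bcat2, Bckdha and Bckdk, of which Bcat2 and Bckdk had none. Other pathway genes were named by the 3 smallest p of each list among probe sets with SD above 0.01. Figures were drawn with matplotlib 3.10.9 in Python 3.11.15. Alternatives covered normalization, filters, moderation, weights, a replicate block, a covariate, the probe set per gene and left-out arrays. Leaving out the arrays with skin or lymphocyte genes, and parting hair from epidermis markers, was chosen after seeing the data.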

Additional observations from a re-analysis of the deposited data

Results flagged for a closer look

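In 3 of the 70 groups of 5 arrays formed by the 35 varying member probe sets, 1 array stood far from the other 4. Chance flags about 1 in 20 such groups, or 3.5 of 70. Mdh2 by 1416478_a_at was at 12.03 in knockout 1, where the other knockouts lay between 12.12 and 12.15. Dbt was at 9.02 in wild type 2, where the other wild types lay between 8.76 and 8.83. Ppm1k by 1441988_at was at 6.78 in wild type 4, where the other wild types lay between 6.91 and 6.95.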

How the results depend on the processing

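Under 20 alternatives the TCA cycle, the branched-chain genes and the other pathway genes had 0 probe sets past the threshold each time (limma). The pyruvate dehydrogenase complex had 1, Dlat 1426264_at, where the varying probe sets were fitted and adjusted alone, and 0 in the other 19. The median differences ran from −0.02 to 0.11 for pyruvate dehydrogenase and from −0.02 to 0.06 for the TCA cycle. For branched-chain genes the range was −0.06 to 0.06, with the lowest, against 0.02 over all arrays, after leaving out the 5 arrays with skin or lymphocyte genes; the cause was not tested. Without the same arrays 9 of the 35 varying member probe sets were higher in knockouts, against 26. The 86 probe sets called over the whole array became 43 after quantile normalization, 143 among varying probe sets alone, 167 with array weights, 45 with the slow muscle covariate, 5 with the brightest probe set of each gene, and 31 to 57 without 1 array. Leaving out those 5 arrays gave 0 (limma; 2672 had an unadjusted p under 0.05) from fewer arrays. With the replicate number as a block 5 passed. No pairing of the mice by number was evident, though these values cannot exclude it. Same-numbered arrays correlated over 0.1 in 2 of 5 pairs, and 2 of 5 knockouts were closest to their own number. Of 334 values of the 17 named probe sets under alternatives, 330 kept their call. Any sign among these that turned did so within the spread between arrays. Where the sign was kept, the size of the shift was not checked. Ppm1k by 1441988_at, counted among the 330, fell from 0.39 to 0.11 without those 5 arrays. Of the other values 1 newly passed. The last 3 turned sign by at least that spread, all without those 5 arrays: Ogdh to −0.04, Bckdha to −0.11 and Ppm1k by 1452973_at to −0.02. Background signal could not be separated from dim values, which limits folds near 6.23.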
